A study of Homo sapiens with 17 samples.

Results

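Thyroid hormone receptor beta (TRβ) regions mapped with T3 were set against PBRM1 regions mapped with T3 in Nthy-ORI cells, which the labels call normal thyroid epithelium and which are an immortalised human line. Members were the regions of these 2 deposited lists on chromosomes 1 to 22 and X, 45318 of the 266724 regions in the 8 lists of the series. A TRβ region with at least 1 bp in common with a PBRM1 region was counted as TRβ with PBRM1, and the others as TRβ without PBRM1. PBRM1 regions were divided in the same way into those with and without TRβ. This gave 4495 TRβ regions with PBRM1, 2691 TRβ regions without PBRM1, 4519 PBRM1 regions with TRβ and 33613 PBRM1 regions without TRβ.

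All cells were kept for 24 hours in medium with charcoal-stripped serum and no phenol red, which removes hormone, before T3 or the vehicle NaOH was added. T3 was given at 10 nM, for 6 hours by the sample labels; the protocol text names exposures of 6 or 24 hours. CUT&RUN, which releases the DNA around an antibody-bound protein with a tethered nuclease, was done on nuclei of 500000 cells with antibodies to TRβ, PBRM1, BRG1 or ARID1A, each with T3 and with vehicle. Each of the 8 combinations had 2 libraries and 1 list of regions found in both. The labels do not say whether the 2 libraries came from separate cultures. With 1 list for each group there was no test between lists, and the intervals given are exact 95% binomial or order-statistic intervals that cover counting error across regions only. Regions are not replicates of a condition, and neighbouring regions may share a source. Sequencing depth is unknown from the lists, and the IgG library was not analysed here.

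TRβ is a nuclear receptor that binds DNA through 6-base half-sites close to AGGTCA, most often as a heterodimer with a retinoid X receptor, and exchanges corepressors for coactivators when T3 binds. SWI/SNF complexes use the ATPase BRG1 (SMARCA4) or its relative BRM to move or evict nucleosomes. BAF and PBAF are the main forms: ARID1A belongs to BAF, and PBRM1, which holds a row of acetyl-lysine-binding bromodomains, belongs to PBAF together with ARID2, BRD7 and PHF10.

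The sequences below show what the DNA under the highest-ranked summits at start sites looks like in each class, because the TRβ classes differed in how many of their summits lay at gene ends. They are promoter windows from RefSeq (GRCh38.p14), which run from 250 bases before to 50 bases after an annotated start, on the strand of the gene and 5′ to 3′. Capitals mark the GC box GGGCGG or its complement CCGCCC, the core site of SP and KLF factors, and the half-site AGGTCA or its complement TGACCT. For TRβ with PBRM1 the windows were those of SPATA2L (chr16:89701656-89701955, minus strand), the noncoding gene LOC105372716 (chr20:62794232-62794531, minus strand) and BRD3OS (chr9:134025231-134025530, plus strand).
SPATA2L: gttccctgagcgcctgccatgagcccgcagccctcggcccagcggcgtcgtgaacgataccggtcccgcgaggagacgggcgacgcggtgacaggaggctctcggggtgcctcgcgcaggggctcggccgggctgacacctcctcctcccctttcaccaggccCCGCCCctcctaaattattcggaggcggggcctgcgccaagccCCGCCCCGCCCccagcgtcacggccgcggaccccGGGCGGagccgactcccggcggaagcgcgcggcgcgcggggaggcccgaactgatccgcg
LOC105372716: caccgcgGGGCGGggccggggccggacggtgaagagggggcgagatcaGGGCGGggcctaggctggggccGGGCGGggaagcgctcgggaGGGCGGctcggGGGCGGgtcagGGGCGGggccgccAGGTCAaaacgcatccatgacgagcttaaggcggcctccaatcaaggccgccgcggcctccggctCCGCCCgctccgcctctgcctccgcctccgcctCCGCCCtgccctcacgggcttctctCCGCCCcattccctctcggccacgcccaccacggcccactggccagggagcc
BRD3OS: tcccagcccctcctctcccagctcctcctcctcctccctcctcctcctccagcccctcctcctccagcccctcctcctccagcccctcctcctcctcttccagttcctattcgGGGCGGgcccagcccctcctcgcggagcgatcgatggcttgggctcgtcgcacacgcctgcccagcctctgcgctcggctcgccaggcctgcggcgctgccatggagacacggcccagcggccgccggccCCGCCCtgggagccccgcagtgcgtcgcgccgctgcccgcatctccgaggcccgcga
For TRβ without PBRM1 they were those of TMEM52 (chr1:1919230-1919529, minus strand), PPP2R1A, the scaffold subunit of protein phosphatase 2A (chr19:52189802-52190101, plus strand), and RUVBL2, an ATPase of INO80-type remodelers (chr19:48993637-48993936, plus strand).
TMEM52: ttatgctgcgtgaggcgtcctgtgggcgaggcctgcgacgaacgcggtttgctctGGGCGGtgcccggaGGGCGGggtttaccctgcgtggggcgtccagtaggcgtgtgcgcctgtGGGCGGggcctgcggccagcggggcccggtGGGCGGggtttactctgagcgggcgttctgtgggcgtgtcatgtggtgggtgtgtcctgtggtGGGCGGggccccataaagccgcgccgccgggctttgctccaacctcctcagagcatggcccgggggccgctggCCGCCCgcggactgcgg
PPP2R1A: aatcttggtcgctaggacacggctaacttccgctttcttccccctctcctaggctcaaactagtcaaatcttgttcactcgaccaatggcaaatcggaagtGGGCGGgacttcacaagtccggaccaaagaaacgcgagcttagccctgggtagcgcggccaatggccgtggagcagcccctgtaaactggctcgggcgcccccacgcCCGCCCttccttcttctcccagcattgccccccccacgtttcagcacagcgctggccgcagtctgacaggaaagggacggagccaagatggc
RUVBL2: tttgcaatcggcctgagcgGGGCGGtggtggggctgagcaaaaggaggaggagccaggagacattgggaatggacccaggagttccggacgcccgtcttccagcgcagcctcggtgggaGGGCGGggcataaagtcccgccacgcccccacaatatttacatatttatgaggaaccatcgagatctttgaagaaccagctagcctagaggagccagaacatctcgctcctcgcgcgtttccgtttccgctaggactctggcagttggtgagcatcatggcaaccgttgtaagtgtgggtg
For PBRM1 without TRβ they were those of SEMA3F, a secreted semaphorin (chr3:50155074-50155373, plus strand), GLTP, a glycolipid transfer protein (chr12:109880492-109880791, minus strand), and VLDLR, a lipoprotein receptor (chr9:2621537-2621836, plus strand).
SEMA3F: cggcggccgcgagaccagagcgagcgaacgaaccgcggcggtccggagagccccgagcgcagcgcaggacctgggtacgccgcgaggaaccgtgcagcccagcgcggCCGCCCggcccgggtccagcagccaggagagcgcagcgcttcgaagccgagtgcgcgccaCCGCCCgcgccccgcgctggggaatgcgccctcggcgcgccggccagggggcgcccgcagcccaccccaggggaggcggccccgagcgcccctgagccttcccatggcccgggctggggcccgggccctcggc
GLTP: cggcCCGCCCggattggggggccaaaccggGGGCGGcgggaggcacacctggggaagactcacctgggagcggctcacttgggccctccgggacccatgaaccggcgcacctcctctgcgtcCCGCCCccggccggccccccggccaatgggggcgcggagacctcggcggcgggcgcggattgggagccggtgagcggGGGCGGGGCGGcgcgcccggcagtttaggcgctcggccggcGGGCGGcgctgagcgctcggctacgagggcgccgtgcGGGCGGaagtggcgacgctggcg
VLDLR: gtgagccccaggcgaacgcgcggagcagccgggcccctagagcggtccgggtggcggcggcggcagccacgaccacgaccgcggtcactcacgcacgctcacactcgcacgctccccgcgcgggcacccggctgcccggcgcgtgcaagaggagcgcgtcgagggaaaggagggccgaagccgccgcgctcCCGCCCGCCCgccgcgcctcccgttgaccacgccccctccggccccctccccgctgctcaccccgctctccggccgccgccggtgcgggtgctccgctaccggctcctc
GC boxes were found in all 9 windows, from 2 in BRD3OS, PPP2R1A, RUVBL2, SEMA3F and VLDLR to 9 in LOC105372716. The window of LOC105372716 was the only one of the 9 with an AGGTCA half-site, and it held 1.

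Of the 7186 TRβ regions, 4495 (62.6%, interval 61.4 to 63.7) overlapped a PBRM1 region. The share ran from 53.6% on chromosome 10 to 68.3% on chromosome 9, so it lay above 50% on each of the 23 chromosomes. Seen from the 38132 PBRM1 regions, 4519 (11.9%, interval 11.5 to 12.2) overlapped a TRβ region, from 8.71% on chromosome 8 to 24.0% on chromosome 19. Most TRβ regions therefore coincided with PBRM1, whereas most PBRM1 regions lay elsewhere, in lists of unequal length. With the PBRM1 list shortened to the length of the TRβ list by the authors' signal value, 31.4% of TRβ regions had PBRM1 and 28.0% of PBRM1 regions had TRβ. With a reciprocal overlap of 50% in place of 1 bp, the shares were 27.7% and 5.22%.

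The typical overlap covered nearly all of the TRβ region. Overlapping PBRM1 regions were wider, with a median of 1359 bp against 799 bp for TRβ regions with PBRM1. The median TRβ region with PBRM1 was covered over 99.8% of its length, and 2238 (49.8%) lay wholly inside PBRM1 regions, while the median PBRM1 region was covered over 52.9%. The summit is the position deposited as such in each list, and in wide regions it lay near the middle. The TRβ summit was inside a PBRM1 region in 4069 of 4495 (90.5%), and the PBRM1 summit was inside a TRβ region in 2929 (65.2%). Only 36 TRβ regions had less than 10% of their length covered. A single TRβ region met several PBRM1 regions in 339 cases, with at most 6, and a single PBRM1 region met several TRβ regions in 322 cases, with at most 4.

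TRβ regions without PBRM1 were seldom near misses. The median gap to the nearest PBRM1 region was 11788 bp, with quartiles of 2499.5 and 56865 bp. In 128 (4.76%) the gap was at most 200 bp, in 413 (15.3%) at most 1 kb and in 1269 (47.2%) at most 10 kb. They were also more isolated from other TRβ regions: the nearest one was at a median of 56307 bp (interval 52351 to 60660), against 30727 bp (28160 to 33386) for TRβ regions with PBRM1.

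The median distance between a TRβ summit and the nearest summit of an overlapping PBRM1 region was 287 bp (interval 277 to 296, quartiles 127.5 and 532.5). Summits were within 100 bp of each other in 20.4% of TRβ regions with PBRM1, within 250 bp in 44.8%, within 500 bp in 72.4% and within 1 kb in 93.3%. The distance hardly moved with the width of the TRβ region: its median was 283.5, 274, 284 and 300 bp in the 4 quartile groups of width, from narrowest to widest. In genome coordinates, the TRβ summit was the lower in 2282 regions and the higher in 2206, with 7 at the same base. Summits were not oriented by gene strand, so this split cannot show whether 1 protein lay upstream of the other.

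**Figure D1:**
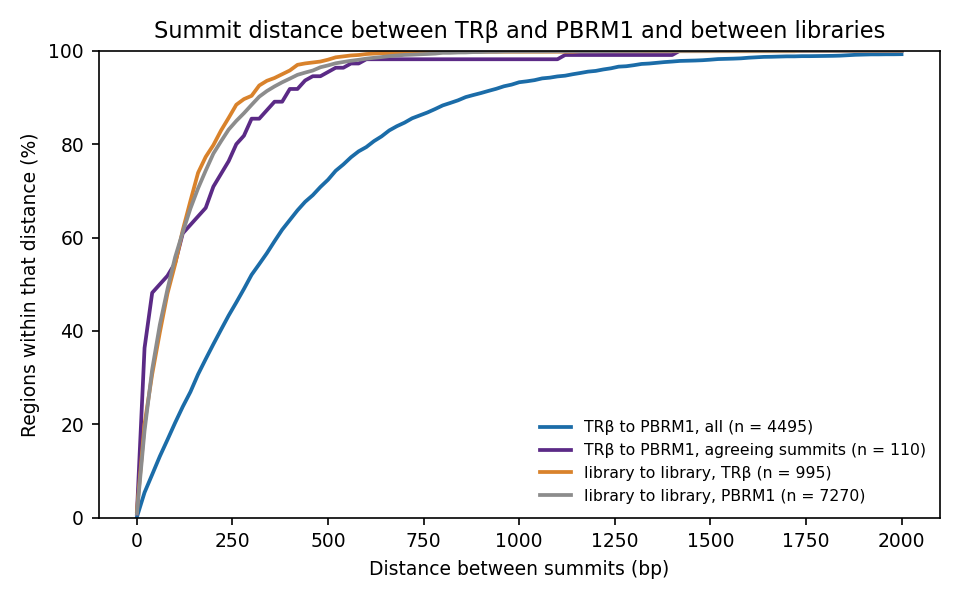
Cumulative percent of regions (vertical axis) whose summits lie within a given distance in bp (horizontal axis). The blue curve is TRβ to PBRM1 in all 4495 TRβ regions with PBRM1, with a median of 287 bp; the purple curve is the 110 whose listed summits are the midpoint of their libraries in both lists, with a median of 61 bp; orange and grey are the distances between the 2 libraries of TRβ and of PBRM1 where the listed summit is their midpoint.

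How precisely a summit was placed limits these distances. In 995 TRβ regions (13.8% of the list) and 7270 PBRM1 regions (19.1%), the listed summit was within 1 bp of the midpoint of the summits of the 2 libraries, and there the libraries lay a median of 86 bp apart for TRβ and 84 bp for PBRM1. In the 110 overlapping pairs where this held on both sides, the TRβ and PBRM1 summits were 61 bp apart (interval 27 to 111). That interval holds the distance between libraries of 1 protein, but the latter is between single libraries and not between midpoints. In the 675 TRβ regions with PBRM1 where it was required of the TRβ summit only, the median was 248 bp (221 to 274). In wide regions the single-library summits leaned to one side of their own intervals. In TRβ regions of 800 bp or wider they lay at medians of 0.218 and 0.168 of each library's interval. The listed summit there lay at 0.489 of the listed width. In TRβ regions under 300 bp the library summits lay at 0.485 and 0.468 of their intervals, and the listed summit at 0.476 of the listed width. The median of 287 bp over all 4495 regions therefore includes many summits whose position was not the same in all columns of the list. Gene-end shares and promoter windows rest on the same listed summits. With the intervals and summits of libraries a and b in turn, the gene-end difference between the TRβ classes was 47.4 and 46.3 points, beside 48.4. For comparison, over all overlapping regions, TRβ summits lay 254 bp from BRG1 and 202 bp from ARID1A summits where PBRM1 was present, and 239 and 202.5 bp where it was absent.

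Regions with both proteins were wider and had higher signal values. Width enters the chance of a 1 bp overlap, so these values describe the classes only. Median width was 799 bp (785 to 812) for TRβ with PBRM1 and 623 bp (612 to 633) for TRβ without, a ratio of 1.28. For PBRM1 the medians were 1359 bp with TRβ and 763 bp without, a ratio of 1.78. The authors' signal value of each library, here called library a and library b in column order, had medians of 5.72 and 5.21 in TRβ regions with PBRM1 and 4.69 and 4.51 in those without. Both libraries were thus higher with PBRM1. In the PBRM1 list the medians were 8.45 and 8.02 with TRβ and 6.53 and 5.33 without, again higher in both libraries. The share of TRβ regions with PBRM1 rose from 37.0% in the lowest decile of the summed signal value to 92.9% in the highest decile. Ranked by 1 library, the lowest decile had 53.7% (library a) and 55.4% (library b), decile 5 had 55.6% and 57.5%, and the highest 91.8% and 89.7%, so most of the rise by single libraries lay above decile 5. Among PBRM1 regions ranked by the sum, the share with TRβ rose from 3.59% to 33.3%.

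Agreement between libraries differed as well. An irreproducible discovery rate (IDR) of at most 0.01 was reached by 59.0% of TRβ regions with PBRM1 and 28.3% of those without, and by 85.1% and 56.9% of PBRM1 regions with and without TRβ. Across regions, the rank correlation of the 2 libraries' signal values was 0.05 in TRβ regions with PBRM1 and −0.35 in those without, and 0.40 and 0.19 in the PBRM1 classes. These are descriptions of lists already filtered on both libraries, over regions of the same 2 libraries. By both measures, TRβ regions without PBRM1 had the lower values.

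TRβ regions with PBRM1 lay at gene ends more often than those without. Counting both ends of protein-coding and long noncoding genes, a summit lay at most 1 kb away in 2919 of 4495 TRβ regions with PBRM1 (64.9%, interval 63.5 to 66.3) and in 446 of 2691 without (16.6%, 15.2 to 18.03). PBRM1 regions without TRβ stood between them, with 10313 of 33613 (30.7%). Median distances were 458 bp, 7190 bp and 3768 bp in the same order. At 10 kb or more from a gene end lay 13.3% of TRβ regions with PBRM1, 43.5% of those without and 32.7% of PBRM1 regions without TRβ.

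**Figure D2:**
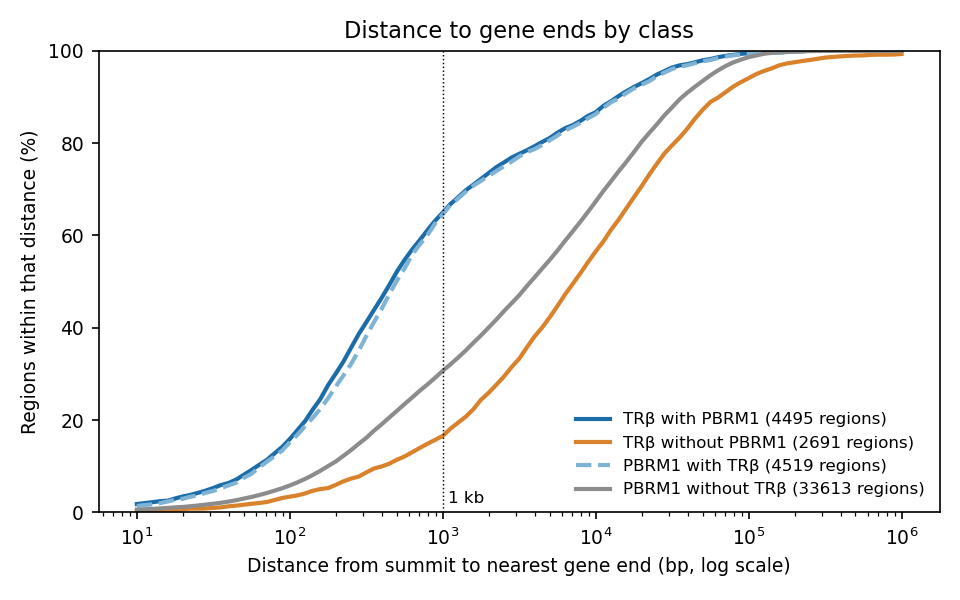
Cumulative percent of regions (vertical axis) whose summit lies within a given distance of the nearest annotated gene end (horizontal axis, bp, log scale), for the 4 classes. At the dotted line of 1 kb, TRβ with PBRM1 stands at 64.9% and TRβ without PBRM1 at 16.6%, and PBRM1 without TRβ runs between them.

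The ends in question were mostly starts. Using the start sites of the promoter windows, which leave out chromosome 8, 60.6% of TRβ regions with PBRM1, 11.4% of TRβ regions without and 26.1% of PBRM1 regions without TRβ had a summit within 1 kb of a start. A 3′ end with no start nearby accounted for 2.08%, 3.07% and 2.87%. Away from ends by over 1 kb, 45.2% of TRβ regions without PBRM1 lay inside a protein-coding gene and 38.3% outside, compared with 23.3% and 11.7% of TRβ regions with PBRM1. Whether an intragenic summit is exonic or intronic was not analysed here.

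The gene-end share was higher with PBRM1 on 23 of 23 chromosomes, at 51.5 to 75.2% with PBRM1 and 3.51 to 49.6% without. The classes were closest on chromosomes 19 (63.7% with PBRM1, 49.6% without) and X (68.0% and 48.4%). The next highest share without PBRM1 was 30.6%, on chromosome 11. The gene-end share was also higher in every quartile group of TRβ width, from 55.3% against 13.4% in the narrowest (85 to 545 bp) to 70.7% against 27.0% in the widest (962 to 10909 bp). Within quartile groups of the summed signal value, chosen after seeing the data, the shares were 58.0% against 11.7% in the lowest and 70.8% against 42.7% in the highest. The difference of 48.4 percentage points over all regions thus became 28.1 points among the TRβ regions of highest signal value. It was 29.0 points with the reciprocal overlap of 50% and 31.9 points with the shortened PBRM1 list. Turned the other way, 86.7% of the 3365 TRβ regions within 1 kb of a gene end had PBRM1, against 41.2% of the 3821 farther away.

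**Figure D3:**
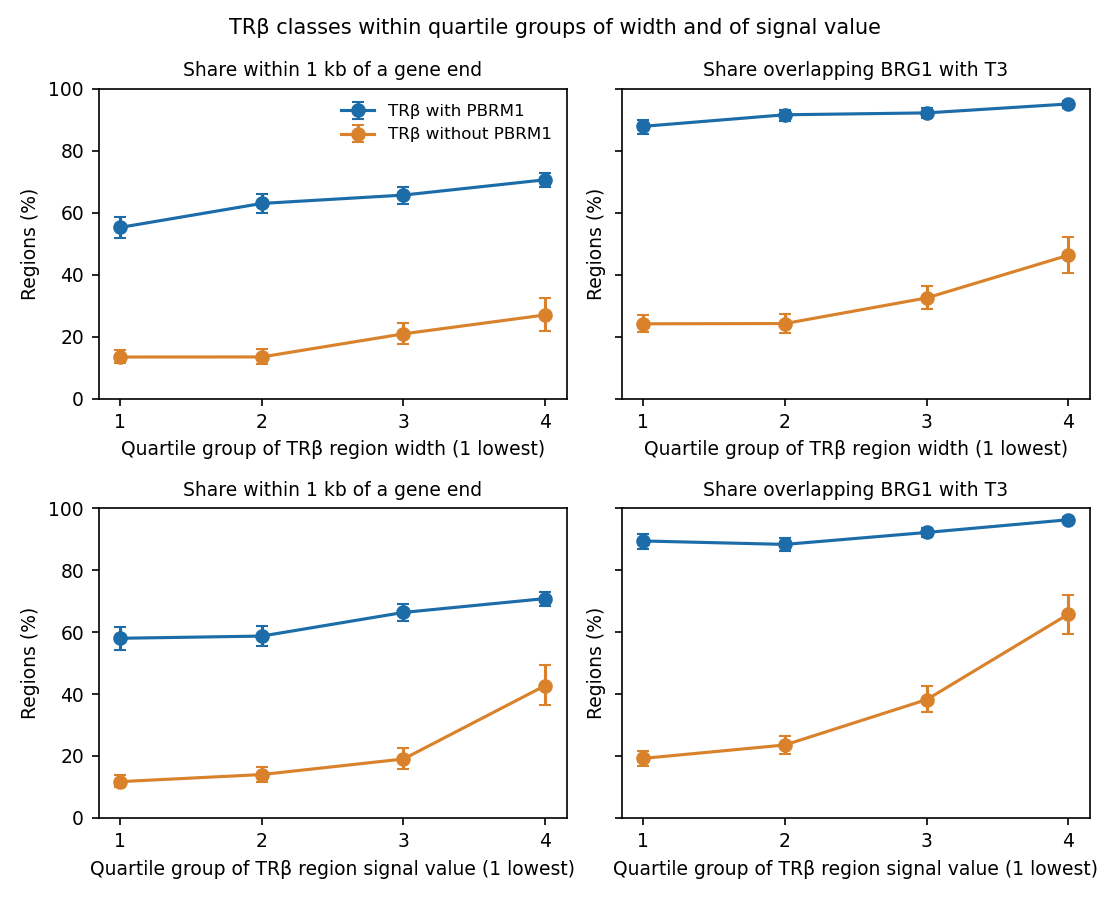
Percent of TRβ regions (vertical axes) within 1 kb of a gene end (left) or overlapping a BRG1 region with T3 (right), by quartile group of region width (top) and of summed signal value (bottom); points are TRβ with PBRM1 (blue) and without (orange), bars are exact 95% binomial intervals. Blue lies above orange in all 4 groups of each panel, and the gap is smallest in the highest signal group, at 70.8% against 42.7% for gene ends.

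The promoter windows that held a summit were rich in G and C. A TRβ summit with PBRM1 fell in 1342 of 34961 windows, a TRβ summit without PBRM1 in 122 and a PBRM1 summit without TRβ in 2628. Median GC content was 69.7%, 63.3% and 68.7%, against 58.7% over all windows, and the median number of CpG dinucleotides was 31, 23 and 29, against 14. GGGCGG was present on either strand in 87.3% (interval 85.4 to 89.0), 70.5% (61.6 to 78.4) and 74.7% (73.0 to 76.4) of these windows, and in 45.0% of all windows. CCGGAA, the core of ETS factor sites, was present in 28.1%, 29.5% and 31.8%, against 17.3%.

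AGGTCA, the receptor half-site, was present on either strand in 86 of 1342 windows with a TRβ and PBRM1 summit (6.41%, interval 5.16 to 7.85), in 14 of 122 with a TRβ summit without PBRM1 (11.5%, 6.42 to 18.5) and in 9.06% of those with a PBRM1 summit without TRβ. Over all windows the share was 13.8%, which lies inside the interval of TRβ without PBRM1. The DR4 repeat, 2 AGGTCA half-sites in the same direction with 4 bases between them, on either strand, was present in none of the windows of these classes and in 7 of all windows. The AP-1 site TGANTCA was present in 2.53%, 2.46% and 3.61%, against 7.68%. The windows differ in base composition from the whole table, these are exact-letter matches in 300 bases, and regions away from start sites were not searched.

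BRG1 and ARID1A regions divided in the same way as gene ends, although neither list entered the rule of the classes. With T3, 4151 of 4495 TRβ regions with PBRM1 (92.3%, interval 91.5 to 93.1) overlapped a BRG1 region, against 28.4% of TRβ regions without PBRM1 and 57.7% of PBRM1 regions without TRβ. For ARID1A the shares were 90.2%, 26.8% and 48.3%. Both BRG1 and ARID1A were listed at 86.2% of TRβ regions with PBRM1 and at 20.1% of those without. Neither was listed at 3.65% of the former and at 1746 (64.9%) of the latter. PBRM1 marks PBAF and ARID1A marks BAF, so most TRβ regions with PBRM1 were also listed for the BAF subunit.

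The BRG1 share was higher with PBRM1 on 23 of 23 chromosomes, at 77.3 to 98.3% with PBRM1 and 17.5 to 60.4% without. The highest shares without PBRM1 were again on chromosomes 19 (60.4%) and X (51.6%), followed by 38.9% on chromosome 6. At gene ends the BRG1 share was 96.4% with PBRM1 and 61.7% without, and over 1 kb from gene ends 84.9% and 21.8%. ARID1A gave 92.7% and 52.7% at gene ends, and 85.5% and 21.7% away from them. In the narrowest quartile group of TRβ regions BRG1 was listed at 87.9% with PBRM1 and 24.2% without, and in the widest at 95.2% and 46.3%. In the highest quartile group of signal value the shares were 96.3% and 65.8%, a difference of 30.5 points beside 63.9 points over all regions. The difference was 34.7 points at gene ends, 34.1 points with the reciprocal overlap of 50%, 40.4 points with the shortened PBRM1 list and 41.4 points at an IDR of at most 0.01.

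**Figure D4:**
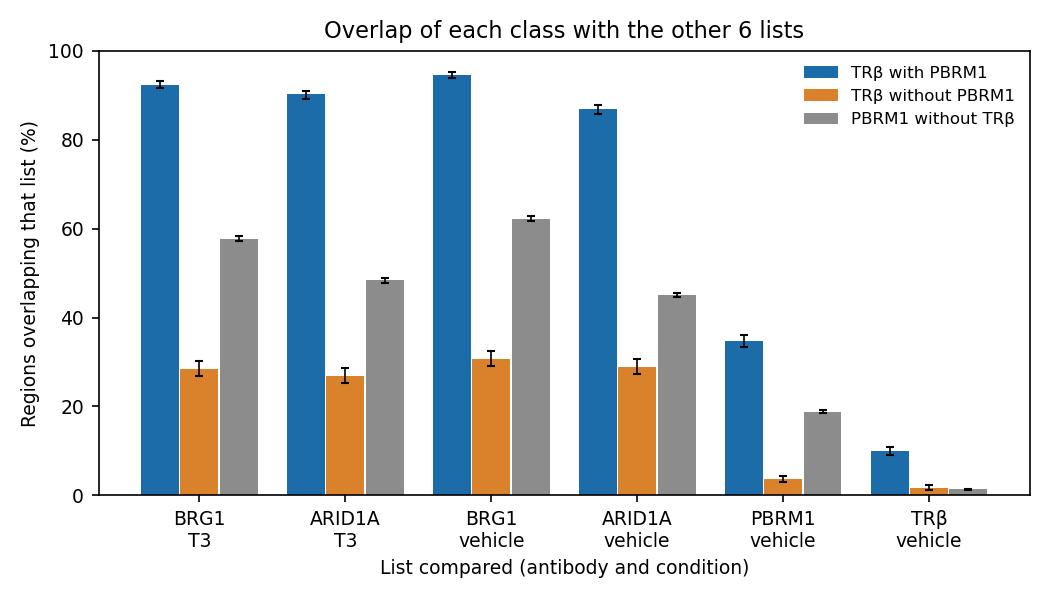
Percent of the regions of 3 classes (vertical axis, bars with exact 95% binomial intervals) that overlap each of the other 6 lists (horizontal axis, antibody and condition). TRβ regions with PBRM1 (blue) reach 92.3% for BRG1 with T3, TRβ regions without PBRM1 (orange) 28.4%.

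Most places occupied by both proteins with T3 were listed for BRG1 and ARID1A without hormone. Of TRβ regions with PBRM1, 94.5% overlapped a BRG1 vehicle region and 86.8% an ARID1A vehicle region; of those without PBRM1, 30.7% and 28.9% did. PBRM1 itself was listed with vehicle at 34.7% of TRβ regions with PBRM1, and TRβ at 10.0%. Neither TRβ nor PBRM1 was listed with vehicle at 2642 (58.8%) of TRβ regions with PBRM1 and at 2554 (94.9%) of those without. The vehicle lists of these 2 proteins were short, at 1405 TRβ and 9115 PBRM1 regions, and a region missing from a list is not shown to be unbound.

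The strongest TRβ regions with PBRM1, ranked by the lower of the 2 library values, were led by one inside GRK1, a rhodopsin kinase gene (chr13:113724478-113727937). It had TRβ signal values of 45.8 in library a and 29.8 in library b, and the overlapping PBRM1 region had 6.83 and 6.37. Second was a region inside STMN3, a stathmin gene (chr20:63641214-63642461), with TRβ values of 65.1 and 29.6, PBRM1 values of 12.6 and 9.73, and summits 15 bp apart. The region inside GNG8, a G protein gamma subunit gene (chr19:46634031-46639742), had TRβ values of 31.9 and 23.3 and PBRM1 values of 5.09 and 5.42. The region inside MNT, whose product partners MAX and represses MYC targets (chr17:2395778-2402451), had TRβ values of 20.5 and 24.1 and PBRM1 values of 7.23 and 8.63. PRR36, SDR42E2 and, with the summit outside the gene, ZNF846 and FLYWCH1 completed the 8. All 8 overlapped BRG1 and ARID1A regions, with T3 and with vehicle. The GRK1, STMN3, MNT and FLYWCH1 regions also overlapped TRβ vehicle regions, which 10.0% of the class did. Those in GRK1 and MNT were met by every list of the series, and the IgG library was not analysed here.

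The TRβ regions without PBRM1 that ranked highest were led by one inside CELF5, an RNA-binding protein gene (chr19:3284312-3286573), with TRβ values of 20.2 and 19.2. Next came a region inside CCDC183 (chr9:136799794-136801412), with 14.3 and 15.1. GRIN1, which encodes the obligate subunit of NMDA receptors, held 2 of the 8, at chr9:137150302-137151805 with 18.03 and 12.48 and at chr9:137151973-137153934 with 12.9 and 11.1. A region inside ZNF846 (chr19:9785407-9786822) had 14.3 and 12.4. ZNF846 thus had a TRβ region without PBRM1 in the gene and one with PBRM1 outside it. DKKL1, ZNF414 and ZNF784 gave the other 3, all on chromosome 19. Of these 8 regions, 7 overlapped BRG1 and 8 overlapped ARID1A with T3, so the strongest members differed from their class, in which 28.4% had BRG1.

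Seen by PBRM1 strength, the first and the third of the regions with TRβ were narrow, inside ALLC (chr2:3651319-3651533, 215 bp wide) and AVPI1 (chr10:97678879-97678999, 121 bp wide). In ALLC the PBRM1 values were 34.2 and 67.2 and the TRβ values 8.75 and 57.2, so library b was far above library a for both antibodies. The ALLC region was also met by every list of the series, with T3 and with vehicle. In AVPI1 they were 29.7 and 53.2 for PBRM1 and 5.10 and 25.5 for TRβ, with the same imbalance. The others were broad: MEGF6, which ranked second (9533 bp), FOSL2, an AP-1 subunit gene (5305 bp), CXXC5, a CpG-binding zinc finger gene (15142 bp), and PLXND1, a semaphorin receptor gene (5310 bp). At FOSL2 (chr2:28390017-28395321) the PBRM1 values were 28.5 and 30.1, and the TRβ region nearest by summit, 267 bp away, had 7.10 and 4.37. At CXXC5 (chr5:139648035-139663176) the PBRM1 values were 27.3 and 104.6, the TRβ values 5.33 and 5.93, and the summits 6326 bp apart.

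Without TRβ, the strongest PBRM1 regions lay inside PSD2 (chr5:139743640-139750004, values of 29.7 and 49.5) and BCAR1, a focal adhesion scaffold gene (chr16:75262105-75268363, 27.9 and 37.5). The third was at FOXE1, a thyroid lineage transcription factor gene (chr9:97851551-97855494, 26.6 and 29.4), 328 bp from a gene end. UGCG, SHB, ATP2B4, METRNL and TNFAIP2 followed. All 8 overlapped BRG1 with T3, and all but the UGCG region overlapped ARID1A with T3.

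A TRβ region with PBRM1 had its summit within 25 kb of an end of 6094 of the 19974 protein-coding genes (30.5%), and a TRβ region without PBRM1 of 2915 (14.6%). A PBRM1 region without TRβ was that near to 14393 genes (72.1%). Both kinds of TRβ region were near 1513 genes, and 1402 had only TRβ regions without PBRM1 nearby. Of these 1402, 293 had no PBRM1 region of either class within 25 kb. Clustered genes share regions, and all counts grow with the window: at 5 kb they were 3940, 1101 and 11351, and at 100 kb 9775, 6545 and 17270.

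Of the 17 gene lists, 15 had a share near TRβ with PBRM1 above 30.5%, and 9 had a share near TRβ without PBRM1 above 14.6%. SWI/SNF ATPases and shared subunits had the highest share for TRβ with PBRM1 and AP-1 factors the highest for TRβ without. These shares are descriptions without a test. The counts for single lists below are to be read beside 30.5% and 14.6%. More genes near TRβ with PBRM1 than without is already the order over all protein-coding genes.

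**Figure D5:**
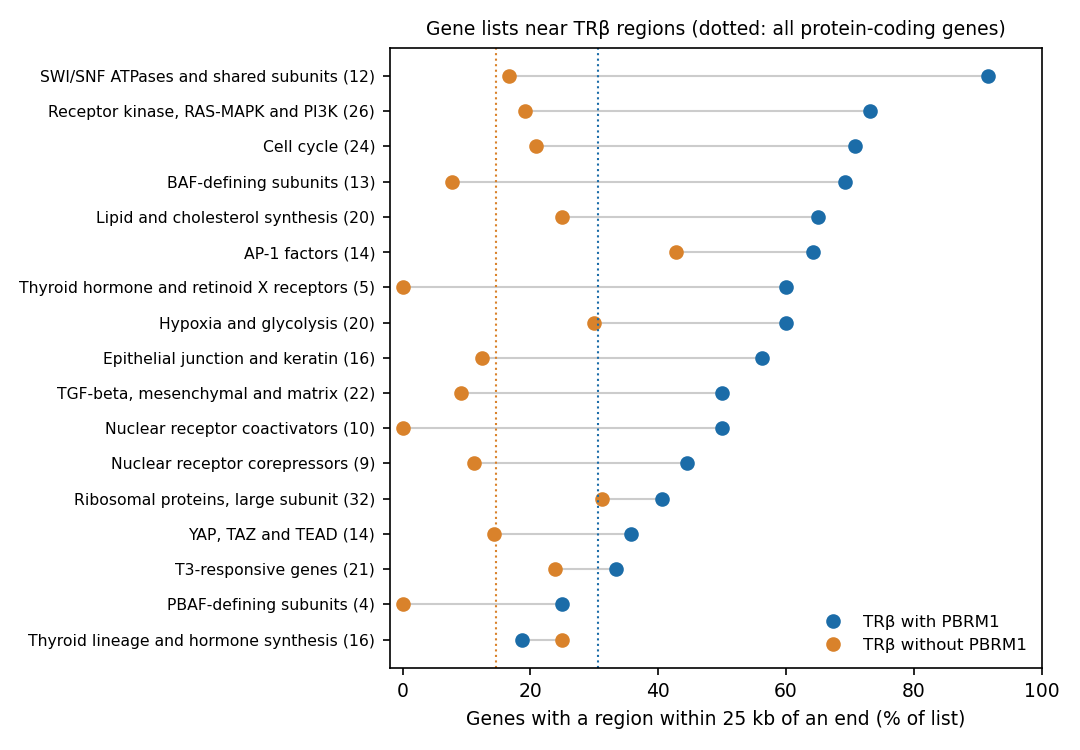
Percent of the genes of each list (list size in brackets) with a TRβ region with PBRM1 (blue) or without PBRM1 (orange) within 25 kb of a gene end; dotted lines are the shares of all protein-coding genes, 30.5% and 14.6%. SWI/SNF ATPases and shared subunits stand highest for TRβ with PBRM1 at 91.7%, and thyroid lineage and hormone synthesis genes are the one list in which orange lies to the right of blue, an order that rests on 1 region shared by 3 genes.

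Receptors and their partners came first in the pathway. TRβ with PBRM1 was near 3 of 5 thyroid hormone and retinoid X receptor genes, and TRβ without PBRM1 near 0 of 5. The shares over all protein-coding genes were 30.5% and 14.6%, the same order, and a list of 5 genes is small. Near RXRB, a heterodimer partner gene, lay 3 TRβ regions with PBRM1. The strongest (chr6:33204398-33205452) was outside the gene, 4061 bp from its nearer end. Its TRβ values were 7.31 and 10.6 and the PBRM1 values 8.17 and 13.1, with summits 11 bp apart. At THRA, the other T3 receptor gene, the TRβ region (chr17:40099085-40099683) had 7.87 and 4.64 and PBRM1 7.81 and 6.63, 5500 bp from the gene. RXRA had a TRβ region 1071 bp from its end with 6.48 and 4.11, and PBRM1 values there of 20.2 and 10.8. THRB, which encodes TRβ itself, had a PBRM1 region without TRβ at its end (chr3:24493853-24496365, values of 13.2 and 7.28).

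Coactivator genes had TRβ with PBRM1 nearby in 5 of 10 and without in 0 of 10, beside 30.5% and 14.6% of all protein-coding genes. PRMT1 and CARM1, arginine methyltransferases that act with p160 coactivators, were among them: the TRβ values were 8.37 and 12.1 near PRMT1, and 13.5 and 8.24 at 443 bp from a CARM1 end. The p160 genes NCOA1 and NCOA3 had PBRM1 regions without TRβ nearby, and NCOA2 had neither protein within 25 kb of an end. Corepressor genes had TRβ with PBRM1 nearby in 4 of 9 (44.4%) and without in 1 of 9 (11.1%), again the order of the background. The SIN3A scaffold gene held the strongest of these (chr15:75452713-75455970), with TRβ values of 12.6 and 20.4, PBRM1 values of 14.6 and 24.9, and summits 23 bp apart. NCOR1 had PBRM1 without TRβ nearby.

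Among T3-responsive genes, 7 of 21 (33.3%) had TRβ with PBRM1 nearby and 5 of 21 (23.8%) had TRβ without. Over all protein-coding genes the shares were 30.5% and 14.6%, so the first lay close to the background. ANGPTL4, a lipoprotein lipase inhibitor, had both kinds: the region with PBRM1 (chr19:8389537-8391073) had TRβ values of 13.6 and 7.48, and the one without (chr19:8355699-8355897) had 4.28 and 4.60. BCL3 also had both, at 7.82 and 6.94 with PBRM1 and 4.69 and 4.16 without. Near KLF9, a transcription factor gene induced by T3 in many tissues, 1 TRβ region (chr9:70419874-70420955) lay outside the gene, 6130 bp from its nearer end. This region had TRβ values of 8.41 and 3.94 and PBRM1 values of 7.69 and 19.1, with summits 1 bp apart. Near HR, a corepressor gene that T3 induces in brain, the TRβ region (chr8:22108390-22108997) had 5.41 and 4.96 and PBRM1 5.30 and 6.82. That region lay outside the gene, 5492 bp from its nearer end. RUNX2 had 1 TRβ region without PBRM1 within 25 kb of an end and a stronger one in its body, 105130 bp from an end, with 5.08 and 5.11. DIO1, a deiodinase gene, had PBRM1 without TRβ nearby, and DIO2 had neither.

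Thyroid lineage and hormone synthesis genes had TRβ with PBRM1 nearby in 3 of 16 (18.75%) and without in 4 of 16 (25%). All protein-coding genes gave 30.5% and 14.6%. PAX8, a lineage transcription factor gene, had 3 TRβ regions with PBRM1, the strongest at chr2:113198821-113199564 with 8.21 and 4.96, and 1 without (chr2:113208448-113208950) with 3.87 and 5.08. The region near HHEX had TRβ values of 9.26 and 4.93 and PBRM1 values of 6.90 and 3.91. DUOX1 and DUOX2, which encode the hydrogen peroxide source of hormone synthesis, and DUOXA2, a DUOX maturation factor gene, shared 1 TRβ region without PBRM1 (chr15:45115044-45115377) with 4.59 and 4.20. Without that region the count for TRβ without PBRM1 was 1 of 16, below the 3 of 16 for TRβ with PBRM1. TG, the thyroglobulin gene, held a TRβ region without PBRM1 in its body (chr8:132922204-132922744, 5.34 and 3.36), and GLIS3 held one with PBRM1 (chr9:4299124-4300135, 3.13 and 7.12), each over 25 kb from an end. FOXE1, TSHR and SLC5A5 had PBRM1 without TRβ nearby, and NKX2-1 had neither protein. Of the epithelial markers, KRT8, KRT18 and KRT19 had both TRβ with PBRM1 and PBRM1 without TRβ, EPCAM had PBRM1 without TRβ, and CDH1 had neither. KRT8 and KRT18 overlap on chromosome 12, so they are not separate observations. The lists hold no expression values, so the labelled cell type was not checked beyond this.

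Genes of the remodelers themselves differed between lists. TRβ with PBRM1 was near 11 of 12 genes of ATPases and shared subunits and 9 of 13 genes of BAF-defining subunits, and TRβ without PBRM1 near 2 of 12 and 1 of 13. The background shares were 30.5% and 14.6%. SMARCA4, the BRG1 gene, had a TRβ region 41 bp from its end (chr19:10960531-10961495), with TRβ values of 6.13 and 6.74 and PBRM1 values of 5.83 and 10.0. The region near ARID1A (chr1:26692349-26693112) had 11.4 and 8.26 for TRβ and 5.09 and 6.50 for PBRM1. Of the 4 PBAF-defining genes, PBRM1 had TRβ with PBRM1 nearby, at 6.25 and 12.3 for TRβ, while ARID2, BRD7 and PHF10 had PBRM1 without TRβ at their ends.

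TRβ with PBRM1 was near 17 of 24 cell cycle genes, 19 of 26 genes of receptor kinases and of RAS-MAPK and PI3K signalling, 12 of 20 hypoxia and glycolysis genes and 13 of 20 lipid and cholesterol synthesis genes. TRβ without PBRM1 was near 5, 5, 6 and 5 of these. Over all protein-coding genes, 30.5% were near the former and 14.6% near the latter, so more genes near TRβ with PBRM1 than without is also the order of the background. CDKN2D, a CDK4 and CDK6 inhibitor gene, had the highest TRβ values among them, 21.6 and 16.3 at chr19:10565642-10569455, with PBRM1 values of 6.80 and 3.39. E2F1 had 6.96 and 9.32 for TRβ at 148 bp from its end, and PBRM1 values of 7.72 and 20.7. ENO1, a glycolytic enolase gene, had 10.5 and 13.5 for TRβ and 11.2 and 21.6 for PBRM1. INSIG1, which retains the sterol sensor in the endoplasmic reticulum, had a region with PBRM1 77 bp from its end at 13.4 and 8.82 and another without PBRM1 at 3.72 and 5.26. The order was not the same at every gene with both kinds of region. At the nuclear receptor gene NR1H2 (LXRβ) the region with PBRM1 had 12.5 and 10.2 and the stronger of those without had 8.60 and 12.7, so neither was higher in both libraries. Some further genes of the lipid list, chosen after their values were seen, had the higher values without PBRM1: SCD, a fatty acid desaturase gene, had 3.48 and 6.05 with PBRM1 and 4.30 and 8.03 without, and LPIN1, a phosphatidate phosphatase gene, had 4.69 and 5.90 with and 8.40 and 6.17 without.

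AP-1 factor genes had the highest share near TRβ without PBRM1, 6 of 14, beside 9 of 14 near TRβ with PBRM1. FOSB had 1 region with PBRM1 inside the gene (chr19:45467700-45470520), with TRβ values of 17.9 and 16.2 and PBRM1 values of 4.66 and 4.88, and 3 nearby without PBRM1, the strongest with 7.402 and 7.338. JUN had TRβ values of 6.44 and 7.05 and PBRM1 values of 16.8 and 25.8, with summits 12 bp apart. Genes of the large ribosomal subunit were second, with 10 of 32 near TRβ without PBRM1 and 13 of 32 near TRβ with PBRM1. YAP, TAZ and TEAD genes had 5 of 14 (35.7%) near TRβ with PBRM1 and 2 of 14 (14.3%) near TRβ without. Both were close to the 30.5% and 14.6% of all protein-coding genes. TEAD2 had a region without PBRM1 and values of 11.72 and 17.04; this is the DKKL1 region named above, with its summit inside DKKL1 and 1132 bp from an end of TEAD2. TGF-beta, mesenchymal and matrix genes had 11 of 22 and 2 of 22, among them VIM, a mesenchymal intermediate filament gene, with PBRM1 values of 12.8 and 13.7 and summits 364 bp apart. Epithelial junction and keratin genes had 9 of 16 and 2 of 16.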

How the data were processed

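CUT&RUN libraries of TRβ, PBRM1, BRG1 and ARID1A, with T3 and with vehicle, were grouped by the sample titles, 2 for each group. Tools named in the submitters' processing notes were MACS2, Bowtie2, Trim Galore and CASAVA 1.7, with hg38 as the build and no settings. The sources used here do not give read depth or say whether IgG served as a control. The authors deposited 1 list for each group in the 20-column layout of the IDR method, with no header. The deposited signal value of a region equals its 2 library signals added together, and library signals served to rank and describe regions inside each list. The score deposited beside it is the IDR on another scale, and the deposited −log10 of the IDR showed rates of at most 0.05. The deposited interval is the union of the 2 libraries' intervals. Which library column is which numbered replicate is not stated.

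Of the TRβ T3 list, 97 of 7283 regions lay on Y or other contigs and were left out. Overlap was at least 1 bp. Gene ends were read from RefSeq's GRCh38.p14 gene table (hg38 coordinates), which has no exons, and start sites from RefSeq promoter windows, which matched 15812 of 19974 protein-coding genes. All 278 entries of the 17 gene lists matched. Shares have exact (Clopper-Pearson) intervals; no p-value was computed. Overlap counting was tested on simulated lists of 7186 regions, with 0 wrong calls. Simulated regions without overlap lay past the last PBRM1 region of their chromosome, so near misses were not tested.

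The classes, gene lists and tests were chosen with earlier results of these data known. Named regions were the 8 of each class with the highest lower-library value, 6 ranked in the PBRM1 list, up to 4 genes of each list by the same TRβ value, of which the text gives some, and a fixed set of receptor, coregulator, thyroid and SWI/SNF genes. Some genes that this rule names are left out of the text. Printed windows were the first 3 of each class that hold a summit. Alternatives were a reciprocal overlap of 50%, the TRβ summit inside a PBRM1 region, an IDR of at most 0.01, a PBRM1 list as long as the TRβ list, single-library intervals, no regions present in all 8 lists, other windows, and quartile groups of width. Quartile groups of signal value, gene-end strata, agreeing summits and the thyroid list without 1 shared region were added after seeing the data. Python 3.11.15, numpy 2.4.6, pandas 2.3.3, scipy 1.17.1 and matplotlib 3.10.9 were used.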

Additional observations from a re-analysis of the deposited data

How the results depend on the processing

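The gene-end and BRG1 differences between the TRβ classes did not change sign and no width ratio fell below 1, but the order of the gene counts of these classes reversed with the PBRM1 list cut to the length of the TRβ list. Of the 88 alternative values computed, 22 stayed within the counting interval of the value reported (for counts of genes, within 1.5 times it) and 66 did not. The share of TRβ regions with PBRM1 was 27.7% with a reciprocal overlap of 50%, 56.6% with the TRβ summit inside a PBRM1 region, 70.2% at an IDR of at most 0.01, 31.4% with the PBRM1 list cut to the length of the TRβ list, 60.7% with the intervals of library b and 61.2% without regions in all 8 lists. It was 44.2%, 56.1%, 65.8% and 84.1% in quartile groups of TRβ width, 40.0%, 53.4%, 69.8% and 87.0% in those of signal value, and 86.7% and 41.2% within and beyond 1 kb of a gene end. The share of PBRM1 regions with TRβ was 5.22%, 10.0%, 10.6%, 28.0%, 11.4% and 11.4% under the first 6 of these settings. The median summit distance was 197.5, 262, 298 and 381 bp under the first 4, 356 and 358 bp with libraries a and b, and 61 bp for agreeing summits. The gene-end difference between the TRβ classes was 29.0 points with reciprocal overlap, 38.9 at the stricter IDR, 31.9 with the cut list, 46.3 with library b, 44.9 and 40.7 with windows of 3 kb and 500 bp, 41.9, 44.8 and 43.7 in width groups 1, 3 and 4, and 46.3, 44.7 and 28.1 in signal groups 1, 2 and 4. The width ratio was 1.47, 1.23, 1.19 and 1.21 under the first 4 settings and 1.36 with library b. The BRG1 difference was 34.1, 58.3, 41.4 and 40.4 points under the first 4, 67.4, 59.8 and 48.9 in width groups 2, 3 and 4, 70.2, 54.0 and 30.5 in signal groups 1, 3 and 4, and 34.7 at gene ends. Genes near TRβ with PBRM1 numbered 3965 at the stricter IDR, 3287 with the cut list, and 3940 and 9775 with windows of 5 and 100 kb; near TRβ without PBRM1 the numbers were 1612, 5614, 1101 and 6545, and near PBRM1 without TRβ 5736 with the cut list. Among the 5 alternatives run for these counts, the cut list was the one that placed more genes near TRβ without PBRM1 than near TRβ with PBRM1, since it moves TRβ regions between the classes by construction. The cause of the other shifts was not tested. No paired analysis was possible because each group has 1 list and its columns carry no replicate number. Depth is unknown, so a region missing from a list may be one that was not detectable.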
